A study of Homo sapiens with 10 samples.

Results

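RAB25 and 9 other Rab GTPases (RAB13, RAB38, RAB30, RAB4A, RAB6A, RAB18, RAB21, RAB1B and RAB5B) were followed in metastasis derivatives of SW620, a human colon cancer cell line. They are 10 of the 4713 genes measured in the table used here and take 75 of its 54806 rows that list 1 gene symbol. A row, taken here as a probe set for part of a gene, was a member if its symbol was one of these 10. The 10 genes were chosen from earlier results of these same comparisons, which had shown the RAB25 change and the values of the others, so their own values are given as a description, with no p-value. Liver metastasis derivatives (3 arrays) and lung metastasis derivatives (3 arrays) of SW620 had been selected in balb/c nude mice and expanded in culture, and parental SW620 cells had 4 arrays. All groups carry the strain label balb/c and were grown in DMEM with fetal bovine serum. The labels call the arrays of a group biological replicates but do not say whether they came from separate metastases or cultures, so a p-value here speaks only for the spread among these arrays. The culture is measured in bulk, so fewer cells that express a gene and less RNA of it per cell cannot be told apart.

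Rab GTPases are small membrane switches. In the form bound to GTP they sit on a vesicle or organelle and recruit effectors such as tethers and motors, and inhibitor proteins carry the form bound to GDP through the cytosol. Each Rab marks particular compartments, and RAB25, a close relative of the RAB11 proteins found mainly in epithelial cells, works at apical recycling endosomes and helps return integrins and other cargo to the cell surface.

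RAB25 was the member with the large change. Averaged over its 5 rows, RAB25 was 8.03-fold higher in liver derivatives and 16.0-fold higher in lung derivatives than in parental cells, where all 5 rows were dim. The means of the other 9 Rab genes moved by -0.22 to 0.30 on the log2 scale in liver derivatives and by -0.42 to 0.14 in lung derivatives. The promoters of RAB25 and of RAB4A are shown because the means of these members differed from parental cells in opposite directions. RAB4A, a Rab of rapid recycling from early endosomes, lies on the same chromosome. Its change was small, -0.22 on the log2 scale (1.16-fold lower) in each kind of derivative. RefSeq's promoter table (GRCh38.p14) had 14 windows for 9 of the 10 members, each running from 250 bases before to 50 after an annotated start. Both windows lie on the plus strand, RAB25 at chr1:156060910-156061209 and RAB4A at chr1:229270861-229271160. Capitals mark the letters CACCTG (an E-box), TGACGTCA (the cAMP response element) and CTTCCT (an ETS-type motif), each searched on both strands, and none of the marked stretches overlaps another.
RAB25: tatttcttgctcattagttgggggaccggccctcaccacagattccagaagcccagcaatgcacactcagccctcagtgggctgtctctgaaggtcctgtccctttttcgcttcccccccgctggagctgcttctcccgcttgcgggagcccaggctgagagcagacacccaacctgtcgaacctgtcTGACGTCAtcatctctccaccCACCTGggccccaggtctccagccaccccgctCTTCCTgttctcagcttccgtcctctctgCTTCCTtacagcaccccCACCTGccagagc
RAB4A: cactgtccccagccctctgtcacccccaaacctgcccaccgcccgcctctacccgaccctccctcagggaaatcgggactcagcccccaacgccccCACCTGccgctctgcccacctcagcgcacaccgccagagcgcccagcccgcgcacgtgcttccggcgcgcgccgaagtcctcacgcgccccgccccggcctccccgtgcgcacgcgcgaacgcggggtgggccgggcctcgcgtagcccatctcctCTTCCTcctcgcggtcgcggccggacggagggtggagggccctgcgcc
The RAB25 window held 2 matches to CACCTG, 1 to TGACGTCA and 2 to CTTCCT, and the RAB4A window held 1, 0 and 1. Over all 35116 promoter windows of the table, 20.6% held CACCTG, 1.85% held TGACGTCA and 33.6% held CTTCCT. The letters TATAAA, which 11.5% of the windows held, were not in either. RAB25's window had 9 CG dinucleotides against 38 in RAB4A's and 1 to 38 in the 13 member windows other than RAB25's. The median over all windows was 14, and 43.6% had as few as RAB25's or fewer. A match is a stretch of letters and no binding was measured here.

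A parental array stood apart from the other 3, which bears on every lung comparison. Parental array 4 correlated with parental arrays 1 to 3 at 0.968 to 0.970 over all rows, whereas those arrays correlated among themselves at 0.987 to 0.989. On the first principal component, which held 38.9% of the variance, parental array 4 (44.7) lay on the side of the lung arrays (70.8 to 104). Parental arrays 1 to 3 (-66.9 to -49.5) lay there on the side of the liver arrays (-43.2 to -41.7). By correlation parental array 4 was no closer to the lung arrays (0.966 to 0.967) than to parental arrays 1 to 3. The lung arrays correlated with parental arrays 1 to 3 at 0.946 to 0.961 and among themselves at 0.969 to 0.971. Parental array 4 was thus the parental array closest to them. On the second component (16.4% of the variance) it lay at -85.9, the lung arrays at 8.17 to 27.3 and parental arrays 1 to 3 at -35.4 to -20.5. The sets of arrays, parental array 4 with the lung arrays and all others, thus follow the first component and the correlations with the lung arrays. They do not follow the second component. They were seen in the values and are not given by the labels, which name no batch. The lung changes of the members and of named genes are therefore set beside those of a fit that adds the array set (the array set term), which compares lung derivatives with parental array 4 alone. All other parental arrays belong to the set without lung arrays, so the set and the lung group cannot be told apart beyond that single array. A change is the difference between group means on the log2 scale, its standard error (SE) is that of the limma fit, and a gene or row is called at a limma adjusted p under 0.05 over all genes or rows. The members were chosen with these comparisons known. Their calls, and how often other fits kept them, therefore describe the values and are no test.

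RAB25 stood apart from parental cells in every row. Row 4 read 10.88, 10.72 and 10.50 in liver derivatives and 11.87, 11.73 and 11.76 in lung derivatives, against 5.19, 6.34, 5.95 and 5.76 in parental cells (log2 values). Row 3 read 10.72, 10.61 and 10.25 in liver derivatives and 11.22, 11.43 and 11.42 in lung derivatives, against 6.72, 6.51, 6.74 and 6.69 in parental cells. In both rows all derivative arrays lay more than 3 log2 units above all parental arrays, and the lung arrays lay above the liver arrays. Row 5 read 9.56, 9.67 and 9.62 in liver derivatives and 10.50, 10.69 and 10.76 in lung derivatives, against 6.49, 6.51, 6.36 and 6.97 in parental cells. Row 2 read 9.04, 8.97 and 8.79 in liver derivatives and 9.76, 9.86 and 9.92 in lung derivatives, against 7.16, 7.41, 7.10 and 6.32 in parental cells. Here too the groups did not overlap, and parental array 4 was the lowest array of row 2 and the highest parental array of row 5. Row 1 read 5.89, 6.14 and 6.29 in liver derivatives and 7.24, 7.07 and 7.28 in lung derivatives, against 4.64, 4.79, 4.88 and 4.91 in parental cells. The order lung, then liver, then parental held in all 5 rows without overlap.

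**Figure D1:**
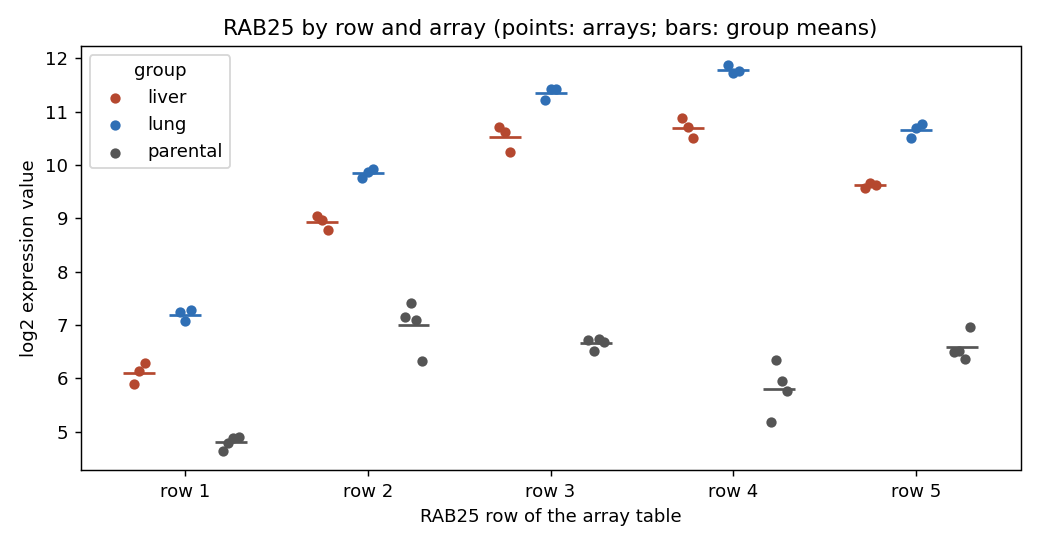
Log2 expression value (vertical axis) of the 5 RAB25 rows (horizontal axis) on each array, with points for arrays and bars for group means in liver, lung and parental cells. In row 4 the means were 10.70 in liver derivatives, 11.79 in lung derivatives and 5.81 in parental cells, and in all 5 rows the groups stay apart.

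The size of the RAB25 change depended on the row. In liver derivatives the rows were higher than in parental cells by 1.30 (SE 0.12), 1.94 (SE 0.22), 3.86 (SE 0.13), 4.89 (SE 0.23) and 3.03 (SE 0.15), which is 2.47-fold in row 1 and 29.7-fold in row 4. In lung derivatives they were higher by 2.39, 2.85, 4.69, 5.98 and 4.07, which is 5.25-fold in row 1 and 63.2-fold in row 4. The dim limit was 7.26, the 25th percentile over all rows of each row's highest group mean. The parental mean lay under it in 5 of 5 rows, and the liver and lung means lay under it in row 1 only. The folds therefore rest on dim parental values, from which no parental expression can be read.

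As the mean of its rows, RAB25 was 9.22, 9.22 and 9.09 in liver derivatives and 10.12, 10.16 and 10.23 in lung derivatives, against 6.04, 6.31, 6.21 and 6.13 in parental cells. Group means were 9.18 ± 0.08 in liver derivatives (SD, n = 3), 10.17 ± 0.06 in lung derivatives (SD, n = 3) and 6.17 ± 0.12 in parental cells (SD, n = 4). The spread within a group was small beside the distance between groups, and parental array 4 (6.13) lay inside the range of the other parental arrays. The change was 3.01 (SE 0.07) in liver derivatives and 4.0 (SE 0.07) in lung derivatives. With the array set term the lung change was 4.04 (SE 0.11). Lung derivatives were above liver derivatives by 0.99 (SE 0.08), and by 1.05 (SE 0.13) with the array set term. By its 5 rows that last difference was 1.09, 0.91, 0.83, 1.09 and 1.04, and with that term 0.95, 1.81, 0.80, 1.16 and 0.52, of which 1 row was called.

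In liver derivatives, 5 of the 75 member rows were called, all of them RAB25 rows and all higher, where 2.20% of the 56949 rows tested were called, 1.15% higher and 1.04% lower. None of the 70 rows of the other 9 genes was called. With dim rows left out 4 member rows were called higher, all of RAB25, and 1 lower, row 1 of RAB18 (-0.41). Of the 42711 rows then tested, 796 were called higher and 737 lower. The 4 RAB25 rows passed that filter only through the derivative groups, so their calls there are no further support. By gene means RAB25 was 1 called gene of 10, where 7.83% of 4713 genes were called, 4.33% higher and 3.50% lower. Arrays of liver and parental cells did not overlap in 4 of the 10 genes, higher for RAB25, RAB6A and RAB5B and lower for RAB4A, where 20.2% of all genes did not overlap. The median change of the 10 genes was 0.11 and that of all genes 0.01.

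**Figure D2:**
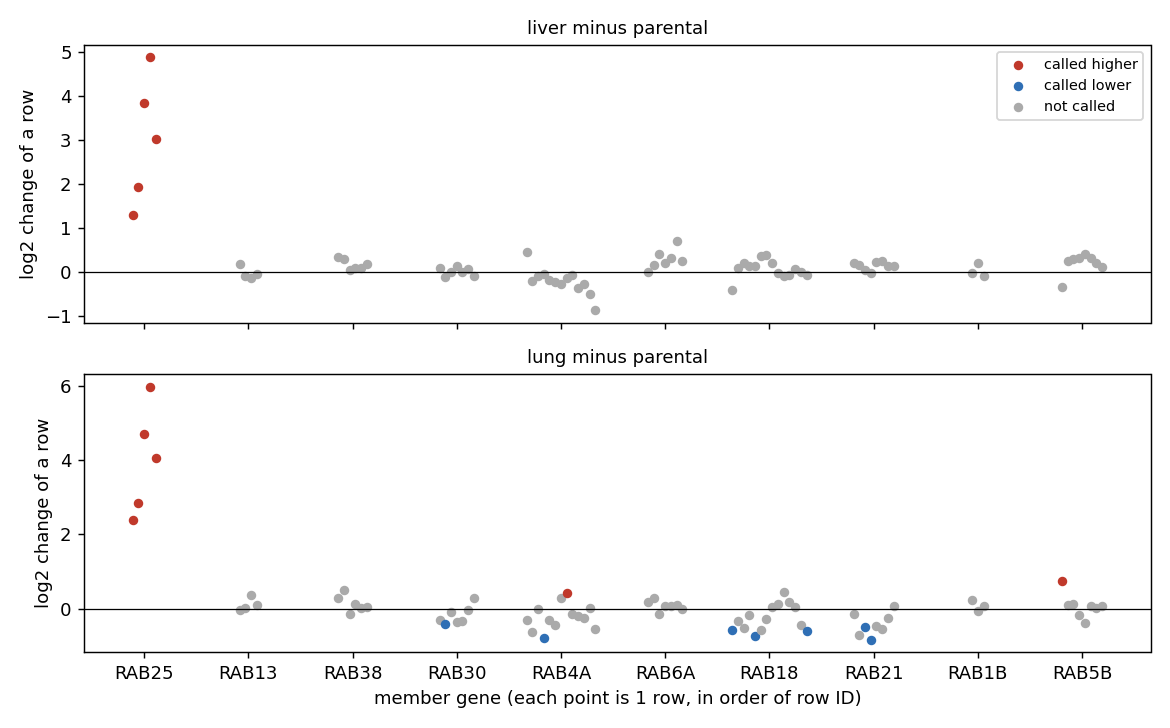
Log2 change (vertical axis) of each of the 75 member rows in liver minus parental (top) and lung minus parental (bottom), with called rows coloured red (higher) or blue (lower). RAB25 rows lie between 1.30 and 4.89 in liver derivatives and between 2.39 and 5.98 in lung derivatives, and the rows of the other 9 genes lie between -0.87 and 0.71 in liver derivatives and between -0.83 and 0.76 in lung derivatives.

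In lung derivatives, 14 of the 75 member rows were called, 7 higher and 7 lower, where 13.1% of all rows were called, 5.15% higher and 7.99% lower. RAB25 gave 5 of the higher ones. The other 9 genes had 9 called rows of 70, which is 12.9%. By gene means RAB25 was called higher and RAB30, RAB4A, RAB18 and RAB21 lower, where 30.1% of all genes were called, 12.9% higher and 17.3% lower. Lung and parental arrays did not overlap in 6 of the 10 genes, 2 higher and 4 lower, where 32.3% of all genes did not overlap. With the array set term RAB25 was the called gene among the 10, where 5.75% of all genes were called. By rows 6 member rows were then called, the 5 of RAB25 and 1 of RAB6A, where 1.12% of all rows were called, and none of the 9 rows from other members kept its call. In 7 of those 9 rows parental array 4 lay on the lung side of parental arrays 1 to 3. Without parental array 4, 31 member rows were called, and without parental array 2, 6 were. Over all 56949 rows, leaving out single arrays gave 2519 to 16222 calls, the most without parental array 4. The call of RAB21 was kept in 7 of 10 fits that each left out 1 array, that of RAB30 in 6, that of RAB18 in 5 and that of RAB4A in 1.

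**Figure D3:**
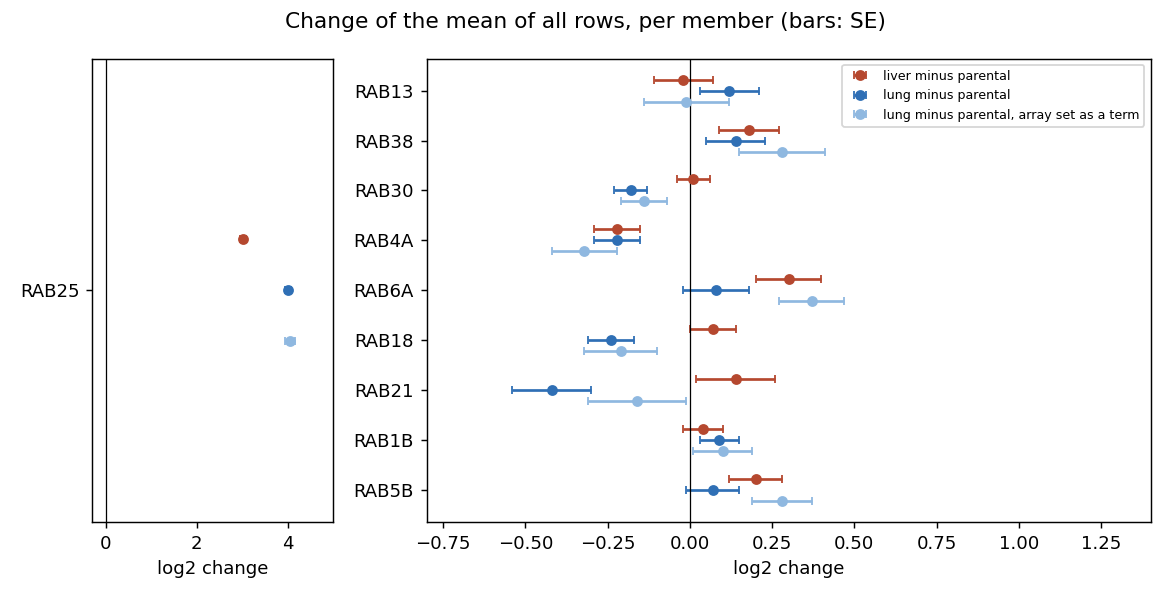
Log2 change of the mean of all rows (horizontal axis, bars are SE) of each member in liver minus parental, lung minus parental and lung minus parental with the array set term, on separate scales for RAB25 (left) and the other 9 genes (right). RAB25 is at 3.01, 4.0 and 4.04, and the changes of RAB21 in lung derivatives are -0.42 and, with the term, -0.16.

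Among Rabs of early and recycling endosomes, RAB4A returns cargo quickly to the plasma membrane, RAB5B acts in fusion of early endosomes and RAB21 binds integrins and acts in their uptake. RAB4A was 9.51, 9.65 and 9.61 in liver derivatives and 9.52, 9.63 and 9.60 in lung derivatives, against 9.89, 9.75, 9.67 and 9.90 in parental cells. All derivative arrays lay below all parental arrays, the nearest by under 0.1. The change was -0.22 (SE 0.07) in each kind of derivative and -0.32 (SE 0.10) in lung derivatives with the array set term. Of its 13 rows, 12 were lower in liver derivatives and 10 in lung derivatives. The rows did not move as one in lung derivatives, where row 4 was called lower (-0.79) and row 8 higher (0.43).

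RAB5B was 9.68, 9.76 and 9.71 in liver derivatives and 9.64, 9.49 and 9.64 in lung derivatives, against 9.52, 9.59, 9.65 and 9.32 in parental cells. Liver arrays lay above the parental ones by a narrow gap and lung arrays overlapped them, with parental array 4 the lowest. The change was 0.20 (SE 0.08) in liver derivatives and 0.07 (SE 0.08) in lung derivatives, or 0.28 (SE 0.09) with the array set term. Its row 1, with all groups under the dim limit, was the called RAB5B row in lung derivatives (0.76), and with dim rows left out the lung change of the gene was -0.05.

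RAB21 was 10.22, 10.43 and 10.56 in liver derivatives and 9.70, 9.90 and 9.92 in lung derivatives, against 10.51, 10.28, 10.26 and 10 in parental cells. The lung arrays were the lowest of the 10, and parental array 4 lay between them and the other parental arrays. The change in lung derivatives was -0.42 (SE 0.12), and -0.16 (SE 0.15) with the array set term. Of 8 rows 7 were lower, from -0.83 in row 4, while the brightest was at 0.08. In liver derivatives RAB21 changed by 0.14 (SE 0.12), with overlapping arrays.

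Among Rabs of the Golgi and the endoplasmic reticulum, RAB1B acts in transport between both organelles, RAB6A in traffic from endosomes to and within the Golgi, RAB30 at the Golgi and RAB18 at the endoplasmic reticulum and lipid droplets. RAB6A was 11.10, 11.01 and 10.95 in liver derivatives and 10.69, 10.83 and 10.89 in lung derivatives, against 10.86, 10.78, 10.81 and 10.43 in parental cells. The liver arrays were the highest, the lung arrays overlapped the parental ones, and parental array 4 was the lowest of all 10. The change was 0.30 (SE 0.10) in liver derivatives and 0.08 (SE 0.10) in lung derivatives, or 0.37 (SE 0.10) with the array set term. Row 6 read 11.71, 11.65 and 11.57 in liver derivatives and 10.90, 11.13 and 11.07 in lung derivatives, against 11.43, 11.19, 11.48 and 9.64 in parental cells. Parental array 4 was far below the rest there, and the row was called higher in lung derivatives (1.39) with that term.

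RAB30 was 9.63, 9.67 and 9.63 in liver derivatives and 9.42, 9.45 and 9.49 in lung derivatives, against 9.65, 9.67, 9.62 and 9.59 in parental cells. Lung arrays were the lowest, and liver and parental arrays overlapped. The change was 0.01 (SE 0.05) in liver derivatives and -0.18 (SE 0.05) in lung derivatives, with -0.14 (SE 0.07) with that term. RAB30 differed little between parental array 4 and the others (-0.06).

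RAB18 was 10.16, 10.22 and 10.31 in liver derivatives and 9.81, 10.04 and 9.91 in lung derivatives, against 10.27, 10.16, 10.09 and 10.13 in parental cells. The lung arrays lay under all others, the closest by 0.05. The change was 0.07 (SE 0.07) in liver derivatives and -0.24 (SE 0.07) in lung derivatives, or -0.21 (SE 0.11) with the array set term. Of its 14 rows 9 were lower and 5 higher in lung derivatives, and the brightest row was among the higher ones, at 0.14. The 3 called rows were -0.58 in row 1, -0.73 in row 5 and -0.59 in row 14. The rows of RAB18 thus did not all move one way.

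RAB1B was 11.65, 11.55 and 11.48 in liver derivatives and 11.61, 11.60 and 11.62 in lung derivatives, against 11.47, 11.57, 11.55 and 11.51 in parental cells. All 10 arrays lay close together, with the lung arrays just above the highest parental array. The change was 0.04 (SE 0.06) in liver derivatives and 0.09 (SE 0.06) in lung derivatives, or 0.10 (SE 0.09) with the array set term, and 0 of its 3 rows was called. RAB1B and RAB1A, like other close paralogs, can share probes.

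**Figure D4:**
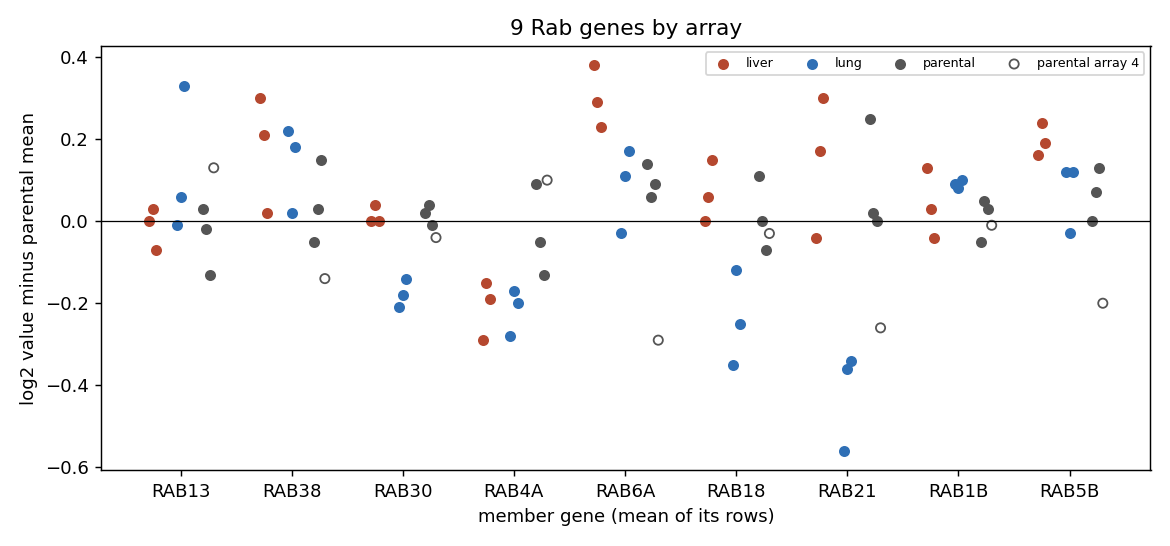
Log2 value minus the parental mean (vertical axis) of the 9 members other than RAB25, as the mean of each gene's rows, by array in liver, lung and parental cells, with parental array 4 as an open circle. Parental array 4 is the lowest parental array for RAB38, RAB30, RAB6A, RAB21 and RAB5B and the highest for RAB13 and RAB4A.

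The last pair has more specialised roles, RAB13 at tight junctions and RAB38 in the making of melanosomes and other organelles related to lysosomes. RAB13 was 10.41, 10.44 and 10.34 in liver derivatives and 10.40, 10.47 and 10.74 in lung derivatives, against 10.44, 10.39, 10.28 and 10.54 in parental cells. The groups overlapped, with changes of -0.02 (SE 0.09) in liver derivatives and 0.12 (SE 0.09) in lung derivatives, where the array set term gave -0.01 (SE 0.13). Row 4 of its 4 rows is numbered among 12 of 12 neighbouring rows of chromosome 12 genes, while the other 3 lie among rows of chromosome 1, where RAB13 lies, and what row 4 reads was not tested. RAB38 was 7.45, 7.36 and 7.17 in liver derivatives and 7.37, 7.17 and 7.33 in lung derivatives, against 7.10, 7.18, 7.30 and 7.01 in parental cells. Its arrays also overlapped, at a level near the dim limit, with changes of 0.18 (SE 0.09) in liver derivatives and 0.14 (SE 0.09) in lung derivatives. The lung change of RAB38 was 0.28 (SE 0.13) with the array set term.

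Set against liver derivatives, lung derivatives had 19 called member rows, 7 higher and 12 lower, where 12.6% of all rows were called, 5.02% higher and 7.61% lower. The 5 higher RAB25 rows are among them, and the other 9 genes had 14 called rows of 70, which is 20.0%. By gene means RAB25 was called higher and RAB21 (-0.57, SE 0.13), RAB18 (-0.31, SE 0.08) and RAB30 (-0.19, SE 0.06) lower, where 19.9% of all genes were called, 8.02% higher and 11.9% lower. Lung and liver arrays did not overlap in 6 of the 10 genes, 1 higher and 5 lower, where 46.0% of all genes did not overlap. With the array set term RAB25 was the called gene of the 10, where 0.0849% of all genes, 4 of them, were called, and 1 member row was called where 0.0632% of all rows were. The signs of RAB6A (0.17), RAB5B (0.15), RAB38 (0.14) and RAB13 (-0.03) turned with that term, against -0.22, -0.13, -0.03 and 0.14 without it. Without liver array 2 or liver array 3, 0 member rows were called, and without parental array 4, 32 were. Over all 56949 rows, fits that each left out 1 array gave 0 to 14167 calls, with 0 without liver array 2 or 3.

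Of 52 other Rab GTPases on a list, 3 had rows in the table. This list and those below were chosen with earlier results of these data known. The adjusted p-values of listed genes, here and below, are therefore no independent support. Rows listed as RAB39 were not counted, since that symbol is a synonym of both RAB39A and RAB34. RAB29, a Rab of the trans-Golgi and lysosomes, was 8.75, 8.73 and 8.65 in liver derivatives and 8.90, 8.91 and 9.19 in lung derivatives, against 9.12, 9.13, 9.0 and 9.08 in parental cells. The liver arrays were the lowest and lung arrays overlapped parental ones. RAB29 fell in liver derivatives (-0.37, SE 0.08, limma adjusted p = 0.0122), a call kept in 8 of 10 fits that each left out 1 array and lost without liver array 2 or 3 (highest adjusted p 0.0676). In lung derivatives it changed by -0.08 (SE 0.08, limma adjusted p = 0.431), and likewise by -0.08 (limma adjusted p = 0.709) with the array set term. RAB42, whose role is little known, was 7.42, 7.50 and 7.32 in liver derivatives and 6.88, 6.60 and 7.25 in lung derivatives, against 6.87, 6.60, 6.73 and 6.50 in parental cells. The liver arrays were the highest, at a level around the dim limit. RAB42 rose in liver derivatives (0.74, SE 0.14, limma adjusted p = 0.00561) by the mean of only 2 rows, of which 1 was called. Its lung value was 0.24 (limma adjusted p = 0.211), or 0.41 (limma adjusted p = 0.254) with the array set term. RAB3B, a Rab of regulated secretion, rose in lung derivatives (0.28, SE 0.08, limma adjusted p = 0.0216), with 0 of 7 rows called and the call kept in 6 of 10 fits that each left out 1 array, and was at 0.25 with the array set term (limma adjusted p = 0.228).

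Among Rab regulators, which load, unload or escort Rabs, 23 of 46 listed genes were measured, and 1 rose and 3 fell in liver derivatives, where 7.83% of all genes were called, and 2 rose and 7 fell in lung derivatives, where 30.1% were. The median change of the 23 was -0.07 in liver derivatives and -0.13 in lung derivatives, against 0.01 and -0.01 over all genes. DENND5B, an exchange factor of the DENN family, fell by 0.94 (SE 0.09, limma adjusted p = 7.22e-05) in liver derivatives and by 1.07 (SE 0.09, limma adjusted p = 4.39e-05) in lung derivatives. Of its 27 rows, 15 and 20 were called lower, and the lung change was -0.81 (limma adjusted p = 0.0011) with the array set term. DENND2C, of the same family, rose by 0.50 (SE 0.07, limma adjusted p = 0.000589) in liver derivatives and by 0.52 (SE 0.07, limma adjusted p = 0.000442) in lung derivatives, or 0.47 (limma adjusted p = 0.0201) with the array set term. DENND5A, also of that family, was at -0.15 (limma adjusted p = 0.18) in liver derivatives. It fell by 0.28 (SE 0.06, limma adjusted p = 0.00695) in lung derivatives, with 5 of 24 rows called lower, and was at -0.29 (limma adjusted p = 0.08) with that term. TBC1D30, of the family that stimulates GTP hydrolysis by Rabs, fell by 0.72 (SE 0.12, limma adjusted p = 0.00296) in liver derivatives and by 0.75 (SE 0.12, limma adjusted p = 0.00198) in lung derivatives, where its value with the array set term was -0.41 (limma adjusted p = 0.0902). CHML, a Rab escort protein, fell in liver derivatives by 0.36 (SE 0.08, limma adjusted p = 0.0212) and was at 0.01 in lung derivatives, or -0.06 with the array set term. Its liver call was kept in 7 of 10 fits that each left out 1 array. In lung derivatives 1 regulator rose and 2 fell with the array set term, where 5.75% of all genes were called.

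Among Rab effectors 18 of 48 listed genes were measured, of which 1 rose and 3 fell in liver derivatives (7.83% of all genes called) and 1 rose and 6 fell in lung derivatives (30.1%), or 0 and 3 with the array set term (5.75%). Their median change was -0.02 in liver derivatives and -0.16 in lung derivatives. SYTL2, an effector of RAB27 in secretion, fell by 1.03 (SE 0.10, limma adjusted p = 5.6e-05) in liver derivatives and by 0.86 (SE 0.10, limma adjusted p = 0.000203) in lung derivatives, or 0.64 (limma adjusted p = 0.0146) with the array set term. OPTN, a RAB8 effector and autophagy receptor, rose by 0.76 (SE 0.19, limma adjusted p = 0.0329) in liver derivatives and by 1.03 (SE 0.19, limma adjusted p = 0.004) in lung derivatives. Its liver call was kept in 5 of 10 fits that each left out 1 array, and its lung value with the array set term was 0.85 (limma adjusted p = 0.122). BICD1, a dynein adaptor bound by RAB6, fell by 0.40 (limma adjusted p = 0.00683) in liver derivatives and by 0.33 (limma adjusted p = 0.0104) in lung derivatives, where the array set term gave -0.43 (limma adjusted p = 0.0437). MICAL2, of the actin oxidase family, fell by 0.28 (limma adjusted p = 0.0114) in liver derivatives and by 0.32 (limma adjusted p = 0.00367) in lung derivatives, where that term gave -0.41 (limma adjusted p = 0.0103). Its liver call was kept in 8 of 10 fits that each left out 1 array. RAB11FIP2, an effector shared by RAB11 and RAB25 and singled out after its values were seen, was at 0.08 (SE 0.09, limma adjusted p = 0.708) in liver derivatives. In lung derivatives it fell by 0.32 (SE 0.09, limma adjusted p = 0.0216), a call kept in 6 of 10 such fits, and stood at -0.12 (limma adjusted p = 0.512) with the array set term. EEA1, a tether of early endosomes that binds RAB5, fell by 0.41 (limma adjusted p = 0.00823) in lung derivatives and was at -0.34 (limma adjusted p = 0.165) with that term.

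Of 28 listed recycling cargoes and coats, 13 were measured, and 1 rose in liver derivatives (7.83% of all genes called) while 1 rose and 2 fell in lung derivatives (30.1%). SLC2A1, the glucose transporter GLUT1, rose in liver derivatives by 0.49 (SE 0.10, limma adjusted p = 0.0122) a call kept in 8 of 10 fits that each left out 1 array, and was at 0.26 (limma adjusted p = 0.074) in lung derivatives. SNX27 and VPS26B, which sort cargo out of endosomes, fell in lung derivatives by 0.27 (limma adjusted p = 0.00907) and 0.26 (limma adjusted p = 0.00984), values that were -0.19 and -0.26 with the array set term, neither of them called. VAMP3, a SNARE of recycling endosomes, rose in lung derivatives by 0.21 (limma adjusted p = 0.0312), a call kept in 5 of 10 such fits, and was at 0.19 (limma adjusted p = 0.234) with the array set term. SLC2A1 was the called gene of the list in lung derivatives with the array set term (0.55, limma adjusted p = 0.0146). ITGB1, the integrin chain whose recycling RAB25 is known to affect, was singled out after its values were seen. It averaged 9.91 ± 0.12 in liver derivatives (SD, n = 3), 9.85 ± 0.06 in lung derivatives (SD, n = 3) and 9.95 ± 0.10 in parental cells (SD, n = 4), and changed by -0.04 (limma adjusted p = 0.87) in liver derivatives and -0.09 (limma adjusted p = 0.373) in lung derivatives, or -0.20 (limma adjusted p = 0.273) with the array set term.

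RAB25 is an epithelial gene, and 18 of 33 other listed epithelial genes were measured. By limma 0 rose and 4 fell in liver derivatives, where 4.33% of all genes were called higher and 3.50% lower, and 5 were higher at an unadjusted p under 0.05. In lung derivatives 6 rose and 4 fell, where 12.9% of all genes were called higher and 17.3% lower. With the array set term 2 rose and 1 fell, where 5.75% of all genes were called. The epithelial transcription factors ELF3 and EHF fell in liver derivatives by 0.51 (SE 0.08, limma adjusted p = 0.00149) and 0.47 (SE 0.07, limma adjusted p = 0.00151). ERBB3, a receptor of neuregulins, and CGN, the tight junction protein cingulin, fell there by 0.48 (limma adjusted p = 0.0122) and 0.30 (limma adjusted p = 0.0154). Leaving out 1 array at a time kept the liver call of ERBB3 in 8 of 10 fits and that of CGN in 7. In lung derivatives OVOL1, an epithelial transcription factor, rose by 0.44 (limma adjusted p = 0.00908) the tetraspanin CD9 by 0.36 (limma adjusted p = 0.00858) and TMEM125 by 0.30 (limma adjusted p = 0.0131), while CGN fell by 0.38 (limma adjusted p = 0.00316). With the array set term OVOL1 was at 0.58 (limma adjusted p = 0.0434), CD9 at 0.17 (limma adjusted p = 0.28), TMEM125 at 0.42 (limma adjusted p = 0.0434) and CGN at -0.31 (limma adjusted p = 0.0902). The keratins KRT8 and KRT18, which were singled out after their values were seen, averaged 12.77 and 11.73 in liver derivatives, 12.82 and 11.61 in lung derivatives, and 12.75 and 11.62 in parental cells.

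Markers of host organs were read on the same arrays. The hosts were mice and the array is for human genes, so these lists cannot show whether host cells were present. Of 9 hepatocyte genes 0 were called in either kind of derivative by limma, where 7.83% and 30.1% of all genes were called. At an unadjusted p under 0.05, 2 of the 9 were higher in liver derivatives and 4 in lung derivatives. The list's mean level per array lay between 6.73 and 6.81 in liver derivatives, 6.69 and 6.87 in lung derivatives and 6.63 and 6.72 in parental cells, all under the dim limit. Of 6 lung epithelial genes 3 rose in lung derivatives (30.1% of all genes called), and 0 were called with the array set term, where 5.75% of all genes were. Their list means were 7.34 to 7.46 in liver derivatives, 7.49 to 7.61 in lung derivatives and 7.26 to 7.42 in parental cells. Of 6 stromal genes 1 fell in liver derivatives (7.83% of all genes called), and 2 rose and 1 fell in lung derivatives (30.1%). Their list means were 6.69 to 6.72 in liver derivatives, 6.86 to 7.16 in lung derivatives and 6.86 to 7.09 in parental cells. Of 5 endothelial genes 0 were called in liver derivatives by limma (7.83% of all genes called), and 0 at an unadjusted p under 0.05. In lung derivatives 1 rose (30.1%). Their list means were 6.94 to 7.11 in liver derivatives, 7.03 to 7.10 in lung derivatives and 6.96 to 7.05 in parental cells. Of 12 leukocyte genes 2, LYZ and CD5, rose in liver derivatives (7.83% of all genes called). In lung derivatives 5 rose and 1 fell (30.1%), or 3 and 0 with the array set term (5.75%). CD5 rose by 1.70 in liver derivatives (limma adjusted p = 1.1e-05) and by 1.70 in lung derivatives (limma adjusted p = 2.11e-05). LYZ rose by 0.97 (limma adjusted p = 0.00163) and 1.64 (limma adjusted p = 5.37e-05). The lung values with the array set term were 1.71 for CD5 and 1.18 for LYZ. The list mean was 6.85 to 6.92 in liver derivatives, 6.96 to 7.05 in lung derivatives and 6.61 to 6.66 in parental cells. PTPRC, which defines leukocytes and was singled out after its values were seen, stood at 5.06 in liver derivatives, 5.23 in lung derivatives and 5.04 in parental cells. It rose in lung derivatives by 0.19 (SE 0.06, limma adjusted p = 0.0395), a call kept in 4 of 10 fits that each left out 1 array, and was at 0.22 (limma adjusted p = 0.175) with the array set term. Of 9 measured genes on the colon cancer cell list, LGR5, TSPAN8, EPHB2 and CD44 fell in both kinds of derivative. Of all genes, 7.83% were called in liver and 30.1% in lung derivatives. The lung calls of TSPAN8 (limma adjusted p = 0.0831) and EPHB2 (limma adjusted p = 0.0514) were lost with the array set term, and TSPAN8 kept its lung call in 7 of 10 fits that each left out 1 array. The list mean was 9.0 to 9.03 in liver derivatives, 9.0 to 9.02 in lung derivatives and 9.34 to 9.37 in parental cells. The part of any of these lists in the RAB25 values was not tested.

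The measured genes next to RAB25 on chromosome 1 had changes from parental cells far smaller than its own. Of the 3 measured genes before it and the 3 after it, SSR2, UBQLN4, LAMTOR2, LMNA, SEMA4A and SLC25A44, 0 were called in liver derivatives by limma, where 7.83% of all genes were. Their liver changes were -0.11 to 0.19, and LMNA alone had an unadjusted p under 0.05. In lung derivatives, where 30.1% of all genes were called, LMNA, which encodes lamin A/C, fell by 0.27 (limma adjusted p = 0.0236). SEMA4A, a semaphorin, rose there by 0.28 (limma adjusted p = 0.0138). LMNA kept its call in 5 of 10 fits that each left out 1 array. With the array set term 0 of the 6 were called, where 5.75% of all genes were, LMNA was at -0.08 (limma adjusted p = 0.583) and SEMA4A at 0.31 (limma adjusted p = 0.112). In lung minus liver, where RAB25 was at 0.99 and 19.9% of all genes were called, LMNA (-0.46, limma adjusted p = 0.0121) and SLC25A44 (-0.38, limma adjusted p = 0.04) were lower. SSR2 was higher (0.28, limma adjusted p = 0.042). Leaving out single arrays kept these calls in 9, 4 and 3 of 10 fits. With the array set term the values were -0.20, -0.11 and -0.02, not called.

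**Figure D5:**
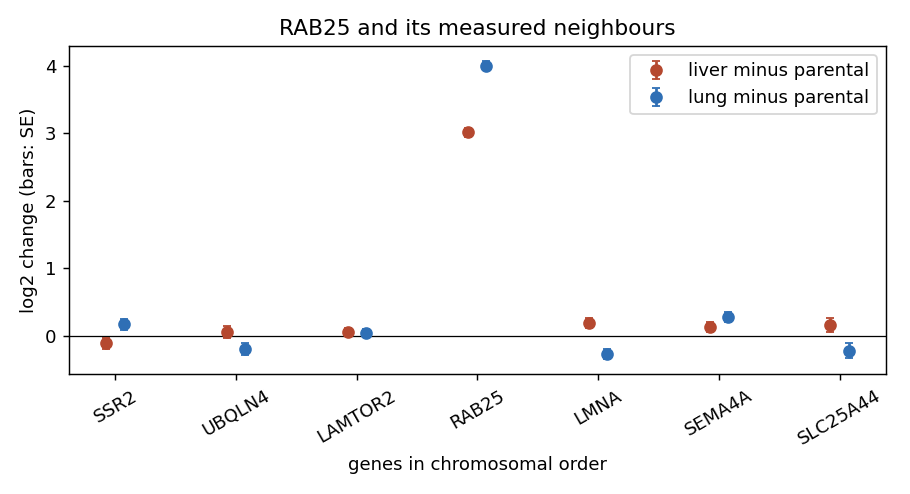
Log2 change (vertical axis, bars are SE) of the mean of all rows of RAB25 and its 6 nearest measured genes, in chromosomal order (horizontal axis), in liver minus parental and lung minus parental. RAB25 is at 3.01 and 4.0 and the neighbours lie between -0.27 and 0.28.

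The genes whose level ran most like RAB25 over the 10 arrays were sought among 198 genes with at least 3 rows and a range of at least 1 log2 unit. Pearson's r with RAB25 was 0.984 for CHST11, 0.982 for ADGRL2, 0.974 for FAM171A1, 0.969 for CA14 and 0.966 for ADM, and it was -0.991 for ROR1, -0.968 for DENND5B and -0.962 for GRAMD1B. These coefficients have no p-value, since the points share the 3 groups and the arrays, and any gene that sets derivatives apart from parental cells scores highly. ROR1, a receptor tyrosine kinase, averaged 7.60 ± 0.09 in liver derivatives (SD, n = 3), 7.18 ± 0.09 in lung derivatives (SD, n = 3) and 8.60 ± 0.07 in parental cells (SD, n = 4), the reverse of RAB25's order. ADGRL2, an adhesion receptor of the latrophilin family, averaged 9.43 ± 0.06 in liver derivatives (SD, n = 3), 9.68 ± 0.03 in lung derivatives (SD, n = 3) and 7.19 ± 0.22 in parental cells (SD, n = 4), the same order.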

How the data were processed

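Total RNA of 10 samples of SW620 cells and derivatives was labelled for the HG1.0ST expression array of Affymetrix, as the labels' protocols state. The deposited log2 values were made by the authors with RMA and oligo, per the submitters' processing notes; versions are not stated there. RMA puts all arrays on a common distribution, so a change in total RNA per cell cannot be seen. The values lay between 2.55 and 13.99 with array medians of 8.52 to 8.60, and no log was taken. The table has 65535 rows, which may be a spreadsheet limit, and 4660 of its 4713 genes lie on chromosomes 1, 10, 11 and 12. Genes elsewhere are not analysed here. The array annotation named a gene for 56949 rows (54806 with 1 symbol, 2143 with several), 8586 rows had none, and 601 of 4727 symbols were updated through RefSeq synonyms. No genome build is stated for the array annotation in these sources.

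Rows, and means of all rows of a gene, were fitted with limma 3.58.1 (R 4.3.3), 1 coefficient per group over all 10 arrays, two-sided, with Benjamini-Hochberg adjustment over all rows or genes. The steps were checked on simulated data. Intervals and errors reflect the number of arrays only, which limits the precision. The members and the gene lists were chosen with earlier results of these data known. The lists are other Rab GTPases, Rab regulators, Rab effectors, recycling cargo and coat, epithelial, hepatocyte, lung epithelial, stromal, endothelial, leukocyte and colon cancer cell genes. Named genes are all members, up to 4 called genes of a list and comparison with the smallest adjusted p, the 3 measured neighbours on each side of RAB25, and the 5 highest and 3 lowest correlations with RAB25. Genes named outside that rule were singled out after their values were seen. The replicate numbers of the labels were checked for pairing. Alternatives were the 2 compared groups alone, the replicate block, the array set as a term, renewed quantile normalization, median centring, leaving out dim rows, the brightest row of a gene, rows with 1 symbol and leaving out each array.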

Additional observations from a re-analysis of the deposited data

Results flagged for a closer look

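None of the 13 Rab genes examined had a stray parental array by a gap test among its 4 arrays. The change from parental cells differed between lung and liver derivatives, in limma's test of lung minus liver derivatives, by 0.29 for RAB29 (adjusted p = 0.0352) and by -0.50 for RAB42 (adjusted p = 0.0359), each call kept in 5 of 10 fits that each left out 1 array. The members RAB25 (0.99), RAB21 (-0.57), RAB18 (-0.31) and RAB30 (-0.19) were picked with these differences known, so theirs are a description and no test. With the array set term the differences were 0.30 for RAB29 and -0.27 for RAB42, neither of them called, and 1.05 for RAB25, -0.22 for RAB21, -0.26 for RAB18 and -0.14 for RAB30.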

How the results depend on the processing

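RAB25's change kept its direction in every alternative run. It was 3.43 in liver and 4.40 in lung derivatives with dim rows left out, and 3.86, 4.69 and 0.83 (lung minus liver) by the brightest row. The dim filter removed RAB25 row 1, which had the smallest change, and kept the other rows only through their derivative means. The brightest row was picked by a mean over all arrays, which the derivatives raise. The larger changes in these settings are therefore no further support. Leaving out single arrays gave 2.96 to 3.05, 3.95 to 4.04 and 0.95 to 1.02. By the brightest row RAB18 (0.14) and RAB21 (0.08) turned to higher in lung derivatives, and RAB18 (0.16) in lung minus liver. The replicate numbers do not pair arrays (correlations of deviations -0.12 to 0.044, own number highest in 4 of 18 cases). The replicate block gave 786 called rows in liver and 12420 in lung derivatives, and 1 other Rab called in liver derivatives and in lung minus liver. No other array shares the number of parental array 4, so the block takes that array out of the group comparisons. For liver derivatives the brightest row gave 134 called genes and 1 other Rab. For lung derivatives the 2 groups alone gave 2120 rows, 937 genes, 6 member rows and 0 other Rabs, the set term 635, 271, 6 and 0, and the brightest row 0 other Rabs. For lung minus liver the set term gave 36 rows, 4 genes, 1 member row and 0 other Rabs. Leaving out single arrays gave, in liver derivatives, 527 to 1464 rows, 219 to 422 genes, 5 to 5 member rows and 1 to 2 other Rabs. In lung derivatives it gave 2519 to 16222 rows (highest without parental array 4), 832 to 1950 genes, 6 to 31 member rows and 0 to 2 other Rabs. In lung minus liver it gave 0 to 14167 rows (0 without liver array 2 or 3), 31 to 1523 genes, 0 to 32 member rows and 0 to 2 other Rabs. The cause was not tested. The parental RAB25 values were dim in all 5 rows.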

Other observations

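In lung minus liver, 1 of 23 measured regulators was called higher and 1 lower, and of 18 effectors 0 and 3. Of 13 recycling genes 1 was called higher and 1 lower, and of 18 epithelial genes 2 and 0. Over all genes 19.9% were called. Among regulators CHML (0.38, limma adjusted p = 0.0208) was higher and MADD, an exchange factor of RAB3 and RAB27 (-0.23, limma adjusted p = 0.0403), lower in lung derivatives. Among effectors RAB11FIP2 (-0.40, limma adjusted p = 0.0205), EEA1 (-0.35, limma adjusted p = 0.0304) and ERC1 (-0.46, limma adjusted p = 0.0161) were lower, and among recycling genes VAMP4 was higher (0.34, limma adjusted p = 0.0388) and SNX27 lower (-0.25, limma adjusted p = 0.0265). Among epithelial genes EHF and ELF3 were higher, each by 0.26 (limma adjusted p = 0.0344 and 0.0465). None of these 9 calls was kept with the array set term, and leaving out 1 array at a time kept them in 2 to 7 of 10 fits.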
